A study of Mus musculus with 6 samples.

Results

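The Hox genes of the mouse were read as all probe sets that the platform's table listed under exactly 1 Hox gene symbol of clusters a, b, c or d. This gave 48 probe sets for 33 genes, out of 45101 probe sets and 18194 genes on the array. Hox genes with no probe set of their own were not analysed here. RNA came from whole FVB embryos at embryonic day 10.5. The 3 diabetes-exposed pools were from dams given 2 injections of 100 mg/kg streptozotocin, which destroys insulin-producing cells, at an age of 7 to 9 weeks, with blood glucose above 250 mg/dl. The 3 control pools were from FVB dams that were not diabetic. Each pool held 3 embryos, each from a different pregnancy and without visible malformation by the study's methods, and was measured on 1 Affymetrix Mouse 430 2.0 array.

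Hox genes encode homeodomain transcription factors that give cells their position along the head-to-tail axis. In mammals they lie in clusters in which the order of the genes follows the order in which they are switched on, so that low numbers are active early and far forward, in the hindbrain and neck, and high numbers late and far back, in the trunk, tail and limb buds. Genes with the same number in different clusters, called paralogs, are copies of 1 ancestral gene and often share tasks. At midgestation the spinal cord, the somites, the limb buds and the hindbrain all contain Hox transcripts. In RNA of whole embryos, fewer cells of a type and less RNA per cell cannot be told apart.

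Of the 33 genes, 29 had a probe set among the 30024 tested, and 4 (Hoxa13, Hoxb7, Hoxb13 and Hoxd12) were too dim on all their probe sets, with a geometric mean signal over the 6 arrays at or under 26.71. Signals are intensities on a linear scale. Each gene was read at its brightest tested probe set. At an adjusted p under 0.05 (limma, Benjamini-Hochberg over all tested probe sets), 12 Hox genes were lower in diabetes-exposed pools, 0 were higher and 17 passed in neither direction. The 12 made up 41.4% of the tested Hox genes, while 19.9% of all 13956 genes tested were called lower and 17.6% higher. By probe set, 18 of 42 (42.9%) were lower and 1 was higher, against 21.8% lower and 14.4% higher among all probe sets. The median log2 fold change was -0.21 over the Hox genes and -0.00025 over all genes, and 23 of the 29 Hox genes were below 0. In 13 genes every diabetes-exposed pool lay below every control pool (26.5% of all genes), and in 1 gene, Hoxc13, every diabetes-exposed pool lay above (25.9% of all genes). The count of 12 dropped to 7 without control pool 2. It includes Hoxa7, which passed the filter on dim probe sets only through its control pools.

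Several measures moved with the groups. The ratio of 3' to middle signal of the poly-A spike controls, added RNAs whose ratio reads how far labelling reached from the 3' end, was 6.56, 3.47 and 7.00 in diabetes-exposed pools 1 to 3, against 2.10, 2.07 and 2.52 in control pools 1 to 3. The groups did not overlap in it, and the 3' to 5' ratio of actin was 3.09 to 10.3 in diabetes-exposed and 1.71 to 2.19 in control pools. With the spike ratio as a covariate, 1 Hox gene was called lower (Hoxb3, adjusted p = 0.038 in limma) and 0 higher, where 1.73% of all genes were called lower and 0.0788% higher. In that fit 22 of 29 Hox genes were below 0 and their median was -0.22. The SE of Hoxa3 grew there from 0.12 to 0.25 and that of Hoxd3 from 0.11 to 0.22. Their log2 fold changes went from -0.94 to -0.89 in Hoxa3 and from -1.0 to -0.97 in Hoxd3. Others moved further, from -3.61 to -1.57 in Hoxa7, from -2.19 to -0.66 in Hoxd11 and from -0.61 to 0.20 in Hoxc6. Hoxb3 went the other way, from -0.59 to -1.19. Array medians were 74.1 to 78.9 in diabetes-exposed pools and 82.5 to 103.3 in control pools, so that centring each array on its median moved the median of all genes to 0.30, and 14 of 29 Hox genes were then below 0. Relative to the median of all genes, the Hox median lay between -0.21 and -0.19 under median centring, quantile and loess normalization.

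Markers of embryonic tissues differed as well. The 4 neural tube markers were all lower, with a summed signal of 4174.5 to 4398.5 in diabetes-exposed pools and 7256.1 to 7654.1 in control pools. Sox2 gave most of it, with means of 2964 in diabetes-exposed and 4535 in control pools. Of 4 tested limb bud markers 3 were lower (Tbx4, Pitx1 and Shh), with sums of 2078.7 to 2230.0 in diabetes-exposed and 3133.7 to 3427.2 in control pools. Most of these sums was Shh, with means of 1840 in diabetes-exposed and 2613 in control pools, so that they mainly read this 1 gene. Tbx5 was at -0.13 ± 0.75 (SE) and not called, with means of 37.5 in diabetes-exposed and 41.4 in control pools, near the dim limit. Its value says little either way. The 5 tested tail bud markers passed in neither direction, with sums of 354.2 to 543.1 in diabetes-exposed and 453.1 to 621.7 in control pools. Nor did the 4 of primitive blood, at 74667.3 to 90860.5 in diabetes-exposed and 75653.9 to 81549.9 in control pools. Of 4 heart markers 3 were higher, with sums of 22762.7 to 24940.9 in diabetes-exposed and 13625.1 to 16032.8 in control pools. Of 4 somite and muscle markers 1 was higher, with sums of 2727.7 to 3088.5 in diabetes-exposed and 2185.3 to 2544.6 in control pools. Of 5 yolk sac markers 2 were higher, with sums of 6849.8 to 10715.8 in diabetes-exposed and 4337.0 to 5029.4 in control pools. Of 7 measured decidua and placenta markers 1 was bright enough to test, Prl8a2, a decidual prolactin relative, at 36.3 in diabetes-exposed and 6211 in control pools, and the list summed to 73.7 to 75.3 in diabetes-exposed and 5758.7 to 6546.5 in control pools. Under median centring the calls of Sox2 (limma adjusted p = 0.13), Pax6 (0.10) and Shh (0.35) were lost. That of Actc1, a heart marker, was lost under quantile (0.17) and loess normalization (0.23). With the spike ratio as a covariate Sox1, Sox2, Myl7 and Prl8a2 were still called, and no other marker was. Pax6 turned to 0.10 in that fit. No marker list held a signal of exactly 0. The part of the labelling ratio or of these tissues in the Hox differences was not tested.

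**Figure D1:**
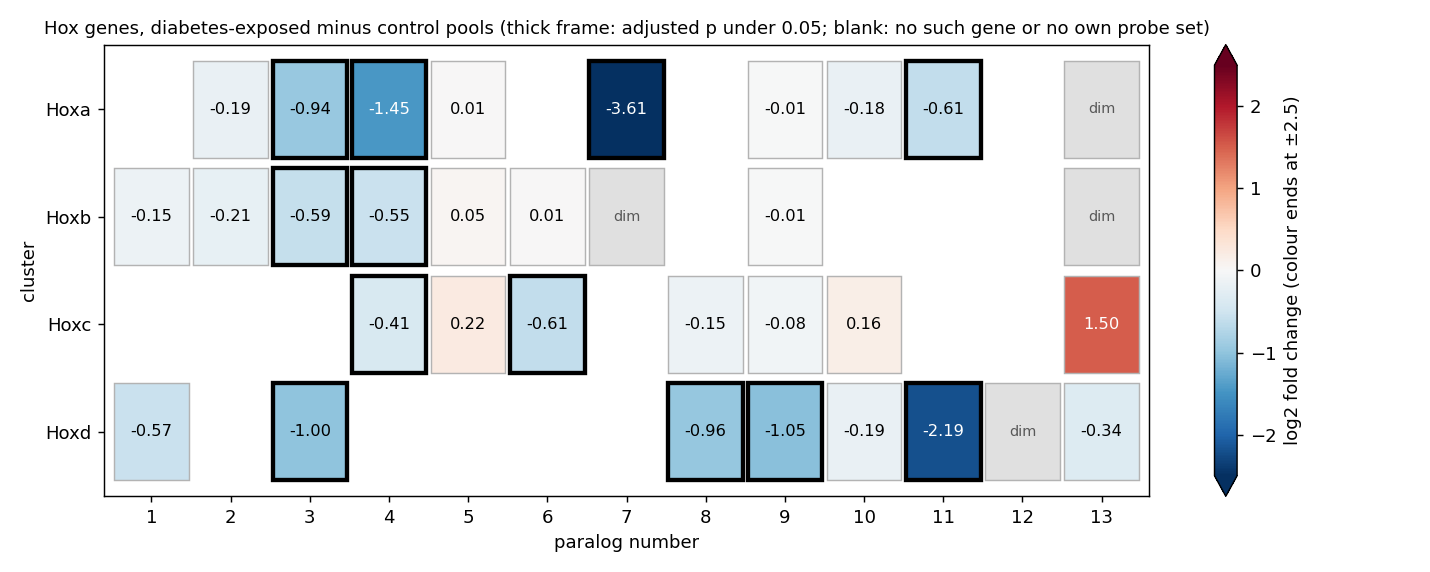
Log2 fold change (diabetes-exposed minus control) of each tested Hox gene at its brightest probe set, with clusters a to d down the page and paralog numbers 1 to 13 across; bold frames mark an adjusted p under 0.05, dim genes are grey, and blank places have no such gene or no probe set of its own. All tested genes of groups 3 and 4 were called lower, as were both tested genes of group 11, and no gene was called higher.

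By cluster, 4 of 8 tested genes of cluster a, on chromosome 6, were lower, 2 of 7 of cluster b, on chromosome 11, 2 of 7 of cluster c, on chromosome 15, and 4 of 7 of cluster d, on chromosome 2. The median log2 fold changes were -0.40 in cluster a, -0.15 in b, -0.085 in c and -0.96 in d, and in the fit that holds the spike ratio as a covariate they were -0.13, -0.20, -0.0083 and -0.66. Relative to all genes cluster d stayed between -0.96 and -0.83 under the 3 scalings, while cluster b was at 0.018 under quantile normalization and cluster c at 0.10 under quantile and 0.067 under loess. The difference between clusters was not tested, since genes are not replicates of a condition. Probe sets bind with different strength, so that levels do not rank genes or clusters. The mean signals of the read probe sets ran between 13.4 and 2118 in diabetes-exposed and 147.8 and 2141 in control pools for cluster a. They ran between 269.6 and 1198 in diabetes-exposed and 340.4 and 1778 in control pools for cluster b, and between 48.3 and 1277 in diabetes-exposed and 17.7 and 1688 in control pools for cluster c. For cluster d they ran between 35.5 and 518.3 in diabetes-exposed and 139.0 and 872.8 in control pools.

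Along the clusters, 3 of 7 tested genes of paralog groups 1 to 3 were lower (median -0.57), 6 of 11 of groups 4 to 8 (median -0.41) and 3 of 11 of groups 9 to 13 (median -0.18). In the covariate fit these medians were -0.20, -0.30 and -0.0083. Single paralog groups were less even. Group 3, with 3 of 3, and group 4, with 3 of 3, held only genes called lower, and so did group 11 with 2 of 2 and group 7 with its 1 tested gene. Groups 1, 2, 5, 10 and 13 held none. In group 6 the called gene was 1 of 2, in group 8 it was 1 of 2 and in group 9 it was 1 of 4. No gene of group 12 was bright enough to test.

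In paralog group 3, whose genes pattern the hindbrain, the throat and the first vertebrae, the difference was called in each of the clusters that hold such a gene. Hoxa3, needed for the thymus and parathyroid, had signals of 317.6, 366.6 and 386.5 in diabetes-exposed pools and 675.6, 687.6 and 686.2 in control pools. All diabetes-exposed pools were far under the control pools, which differed little from each other (log2 fold change -0.94 ± 0.12 SE, n = 3 pools each, adjusted p = 0.0010 in limma). Hoxd3, which shapes the neck vertebrae together with Hoxa3, had 385.0, 376.8 and 353.8 in diabetes-exposed pools and 756.3, 723.2 and 757.7 in control pools. Its groups were again apart, with a log2 fold change of -1.0 ± 0.11 (SE, n = 3 pools each, limma adjusted p = 0.00056). Hoxb3, the hindbrain paralog, had 1275.6, 927.1 and 1392.7 in diabetes-exposed pools and 1842.7, 1822.3 and 1668.3 in control pools. Here diabetes-exposed pool 2 was the lowest (log2 fold change -0.59 ± 0.15 SE, limma adjusted p = 0.015), and the call was lost under median centring (0.24) and without control pool 1 or 2 (at most 0.058). In the covariate fit the log2 fold changes were -0.89 ± 0.25 for Hoxa3, -0.97 ± 0.22 for Hoxd3 and -1.19 ± 0.21 for Hoxb3 (SE), of which the last was called.

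In paralog group 4, which acts at the border of hindbrain and neck, Hoxa4 had 186.3, 223.7 and 216.6 in diabetes-exposed pools and 578.4, 594.0 and 538.7 in control pools. The groups were 2.74-fold apart with no overlap (log2 fold change -1.45 ± 0.13 SE, n = 3 pools each, limma adjusted p = 0.00033), and the covariate fit gave -1.24. Hoxb4, a gene also known from blood stem cells, had 250.4, 233.5 and 324.8 in diabetes-exposed pools and 444.1, 398.5 and 336.8 in control pools. Diabetes-exposed pool 3 nearly reached control pool 3 (log2 fold change -0.55 ± 0.18 SE, limma adjusted p = 0.038), and the call was lost under each of the 3 scalings and without control pool 1 or 2 or diabetes-exposed pool 1 or 2. A dimmer probe set of Hoxb4 was lower at -0.99 ± 0.20 (SE, limma adjusted p = 0.0059). That call held under each of the 3 scalings (limma adjusted p = 0.014 to 0.031) but not in the covariate fit (-0.70, adjusted p = 0.51). Hoxc4, which helps to pattern the neck and upper thorax, had 1249.7, 1184.4 and 1398.3 in diabetes-exposed pools and 1620.4, 1758.0 and 1687.0 in control pools. The step was small against its level (log2 fold change -0.41 ± 0.10 SE, limma adjusted p = 0.012), and the call was lost under median centring (0.66) and without control pool 2 (0.057).

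Among the genes of the trunk, Hoxa7, a thoracic gene, had 8.3, 23.6 and 8.3 in diabetes-exposed pools and 192.4, 141.5 and 109.6 in control pools. All diabetes-exposed pools lay under the limit set for the mean, so that Hoxa7 passed the filter only through the control pools and its fold is given as a bound. With the limit in place of the diabetes-exposed signals it was at least 5.39-fold lower (limma adjusted p = 0.0014 on the signals as measured, where the fitted log2 value was -3.61), and with the dimmest 50% of probe sets left out it was not tested. Hoxd8, active in the trunk, had 297.8, 371.5 and 293.0 in diabetes-exposed pools and 648.1, 605.7 and 608.8 in control pools. No pool crossed over (log2 fold change -0.96 ± 0.13 SE, limma adjusted p = 0.0013), but the covariate fit gave -0.54 (adjusted p = 0.33). A second probe set of Hoxd8 was lower too, at -0.78 (limma adjusted p = 0.024). Hoxc6, a gene of the thorax and forelimb level, had 349.9, 474.0 and 306.6 in diabetes-exposed pools and 692.2, 562.7 and 465.5 in control pools. Diabetes-exposed pool 2 lay above control pool 3, and the log2 fold change of -0.61 ± 0.20 (SE, limma adjusted p = 0.042) turned to 0.20 with the spike ratio as a covariate. Its call was lost under each of the 3 scalings and without control pool 1 or 2 or diabetes-exposed pool 1 or 3. Another Hoxc6 probe set was at -0.51 and not called (limma adjusted p = 0.054). A further Hoxc6 probe set went the other way, at 1.09, with every diabetes-exposed pool above every control pool. It was not called on the signals as measured (limma adjusted p = 0.067). Under median centring (0.0067), quantile (0.015) and loess normalization (0.026) this probe set was called higher.

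Among the genes of the lumbar region and limbs, Hoxd9 had 421.0, 457.0 and 382.3 in diabetes-exposed pools and 1007.7, 828.5 and 782.3 in control pools. Its groups did not overlap (log2 fold change -1.05 ± 0.13 SE, n = 3 pools each, limma adjusted p = 0.0010). Hoxd11, which with Hoxa11 builds the forearm and the kidney, had 21.8, 55.2 and 29.4 in diabetes-exposed pools and 177.7, 165.2 and 115.3 in control pools. Its signals in diabetes-exposed pools 1 and 3 lay close to the dim limit, and the log2 fold change of -2.19 ± 0.39 (SE, limma adjusted p = 0.0034) was -1.47 with a pseudocount of 32 and -0.66 in the covariate fit (adjusted p = 0.70). Hoxa11 had 232.6, 268.5 and 188.2 in diabetes-exposed pools and 412.4, 353.8 and 288.2 in control pools. The lowest control pool was close to the highest diabetes-exposed one (log2 fold change -0.61 ± 0.19 SE, limma adjusted p = 0.036). The covariate fit gave -0.0088 for Hoxa11, and its call was lost under the 3 scalings and without control pool 1 or 2 or diabetes-exposed pool 1 or 3.

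**Figure D2:**
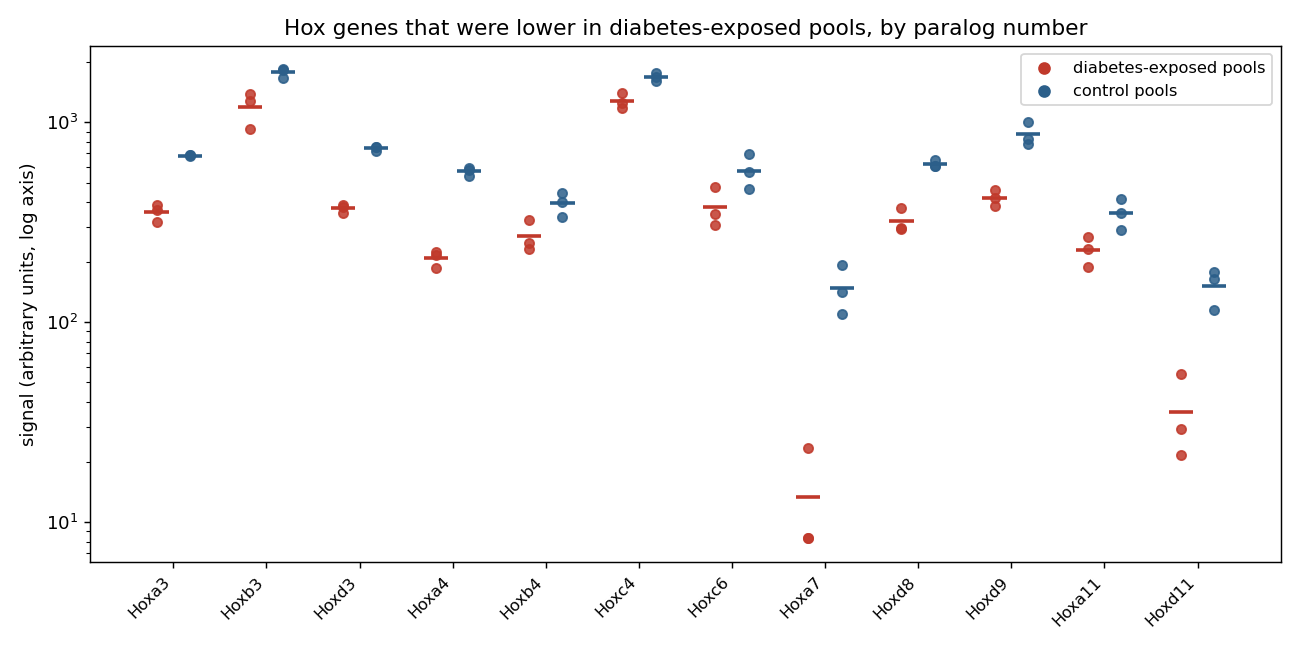
Signal (log axis) of the 12 Hox genes called lower, 1 point per pool, diabetes-exposed pools left of control pools, with group means as bars. The groups are apart in 11 of the 12 genes; in Hoxc6 diabetes-exposed pool 2 (474.0) lies above control pool 3 (465.5).

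Of these 12 genes, 5 were at least 2-fold lower (Hoxa4, Hoxd3, Hoxd9, Hoxd11 and, by its bound, Hoxa7). The call held for 7 of the 12 without each pool in turn and under each of the 3 scalings, against 39.3% of all genes called lower. This count includes Hoxa7, which passed the filter on dim probe sets only through its control pools. The 7, each read at its brightest probe set, were Hoxa3, Hoxa4, Hoxa7, Hoxd3, Hoxd8, Hoxd9 and Hoxd11, all of clusters a and d. In clusters b and c, dimmer probe sets of Hoxb3, Hoxb4 and Hoxc5 were also called lower under each of the 3 scalings. Other probe sets of Hoxa5 and Hoxc6 were called higher under each. Hoxa7 and Hoxd11 were too dim to be tested with the dimmest 50% of probe sets left out. None of the 7 was called in the covariate fit. The call of Hoxa3 was also lost with the mean of its probe sets. With limma's variance not made to follow the mean 8 genes were lower, and the calls of Hoxa11 (adjusted p = 0.065), Hoxb3 (0.055), Hoxb4 (0.067) and Hoxc6 (0.091) in limma were lost. Diabetes-exposed pool 2, which had the lowest labelling ratio of its group, was the highest diabetes-exposed pool in 7 of the 12 genes (55.4% of all genes called lower), and control pool 3 was the lowest control pool in 8 (56.5%). With diabetes-exposed pool 2 alone set against the 3 control pools, 9 genes were called lower, the 7 named here with Hoxb3 and Hoxc4, where 11.5% of all genes were called lower. In that fit the lone pool was assumed to vary like the control pools.

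The other 17 tested genes passed in neither direction. Their log2 fold changes lay between -0.57 (Hoxd1) and 1.5 (Hoxc13). In cluster a they were Hoxa2 (-0.19), Hoxa5 (0.01), Hoxa9 (-0.01) and Hoxa10 (-0.18), and in cluster b Hoxb1 (-0.15), Hoxb2 (-0.21), Hoxb5 (0.05), Hoxb6 (0.01) and Hoxb9 (-0.01). Cluster c had Hoxc5 (0.22), Hoxc8 (-0.15), Hoxc9 (-0.08), Hoxc10 (0.16) and Hoxc13 (1.5), and cluster d had Hoxd1 (-0.57), Hoxd10 (-0.19) and Hoxd13 (-0.34). Hoxb2, active in the hindbrain, and Hoxd1 had no overlap between groups, with every diabetes-exposed pool below every control pool, but missed the threshold (limma adjusted p = 0.11 and 0.12). Hoxc13, known for hair and nails, was near the dim limit, with 60.8, 48.7 and 35.4 in diabetes-exposed pools and 18.2, 24.7 and 10.2 in control pools. All control pools lay under the dim limit, so that Hoxc13 passed the filter only through the diabetes-exposed pools. Against the limit it was at least 1.76-fold higher, at an adjusted p of 0.0507 in limma on the signals as measured, and past the threshold under each of the 3 scalings. Hoxc5 and Hoxc10 were also called higher, each under 2 of the scalings.

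The 4 dim genes were left untested. Hoxa13, needed for digits and the hindgut, had 8.5, 23.2 and 9.0 in diabetes-exposed pools and 4.9, 47.3 and 17.4 in control pools. Hoxb7 had 3.4, 10.8 and 27.8 in diabetes-exposed pools and 34.0, 6.8 and 5.9 in control pools, and Hoxd12, a limb gene, had 4.9, 5.4 and 8.2 in diabetes-exposed pools and 34.0, 29.4 and 1.2 in control pools. The groups overlapped in all of these. Hoxb13 averaged 6.23 in diabetes-exposed and 20.6 in control pools, without overlap but below the dim limit in both.

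Of the 29 tested genes, 20 had 1 tested probe set and 9 had several, and the probe sets of a gene did not always move alike. In Hoxa9, a gene of the trunk and of blood progenitors, the read probe set had 2146.3, 2085.5 and 2122.0 in diabetes-exposed pools and 2263.4, 2296.5 and 1863.8 in control pools. The second probe set of Hoxa9 had 85.4, 188.5 and 47.7 in diabetes-exposed pools and 536.4, 488.9 and 288.2 in control pools. The first did not separate the groups, while the second was lower by 2.21 on the log2 scale, and its ratio to the first changed by -2.20 (limma adjusted p = 0.033 over all such ratios). In Hoxc5, of the lower neck, the read probe set had 1011.1, 904.3 and 1166.5 in diabetes-exposed pools and 788.9, 899.4 and 953.5 in control pools. Another Hoxc5 probe set had 70.4, 84.8 and 65.3 in diabetes-exposed pools and 206.2, 196.2 and 134.7 in control pools. It was called lower (log2 fold change -1.27 ± 0.25 SE, limma adjusted p = 0.0049), opposite in sign to the read one.

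In Hoxb3 both probe sets were lower by unequal amounts. The dimmer one had 218.3, 196.5 and 129.0 in diabetes-exposed pools and 707.6, 756.0 and 664.5 in control pools, a log2 fold change of -2.0 ± 0.20 (SE, n = 3 pools each, limma adjusted p = 0.00044) beside -0.59 at the read one. Hoxa5, which acts in the lung and at the border of neck and thorax, held the only probe set called higher. This had 922.2, 719.2 and 1126.6 in diabetes-exposed pools and 606.4, 492.9 and 540.6 in control pools, and it carries a suffix (_x_at) that marks probes able to bind related transcripts. It was higher by 0.74 ± 0.17 on the log2 scale (SE, limma adjusted p = 0.010), and the read probe set of Hoxa5 by 0.01. Such a suffix also marks the read probe sets of Hoxa3 (_s_at) and Hoxc6 (_x_at), both called lower. The second probe sets of Hoxd8 (_s_at) and Hoxa4 (_x_at) carry it too. Over all Hox genes with several tested probe sets, 6 of 13 ratios to the read probe set changed, against 23.2% of 11265 such ratios over all genes. Those 6 were in Hoxa4, Hoxa5, Hoxa9, Hoxb3, Hoxc5 and Hoxc6, with -2.20 in Hoxa9 the lowest and 1.70 in Hoxc6 the highest. With the spike ratio as a covariate none of the 13 passed (lowest adjusted p = 0.84 in limma), and the second probe set of Hoxa9 was at 0.06.

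**Figure D3:**
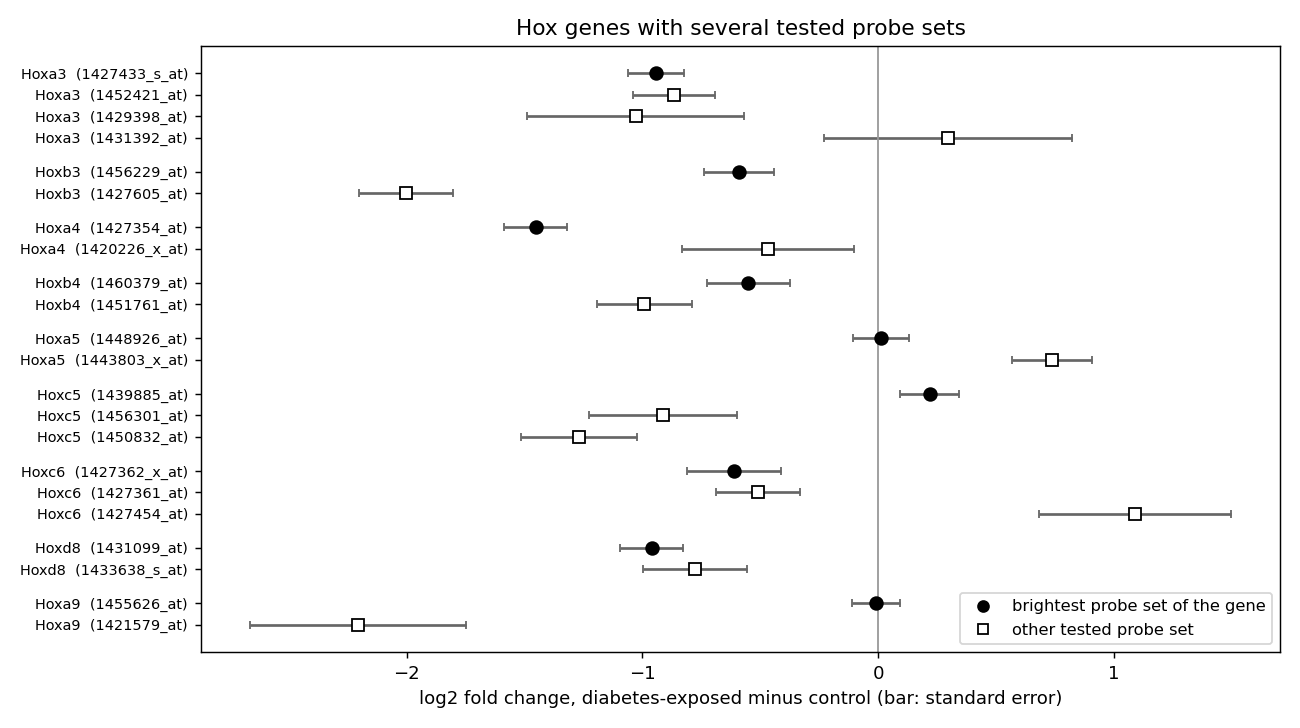
Log2 fold change (diabetes-exposed minus control, bars are SE) of every tested probe set of the 9 Hox genes with several, with the read probe set marked apart from the others. Probe sets of Hoxa9 lie at -0.01 and -2.21 and those of Hoxc5 between 0.22 and -1.27.

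**Figure D4:**
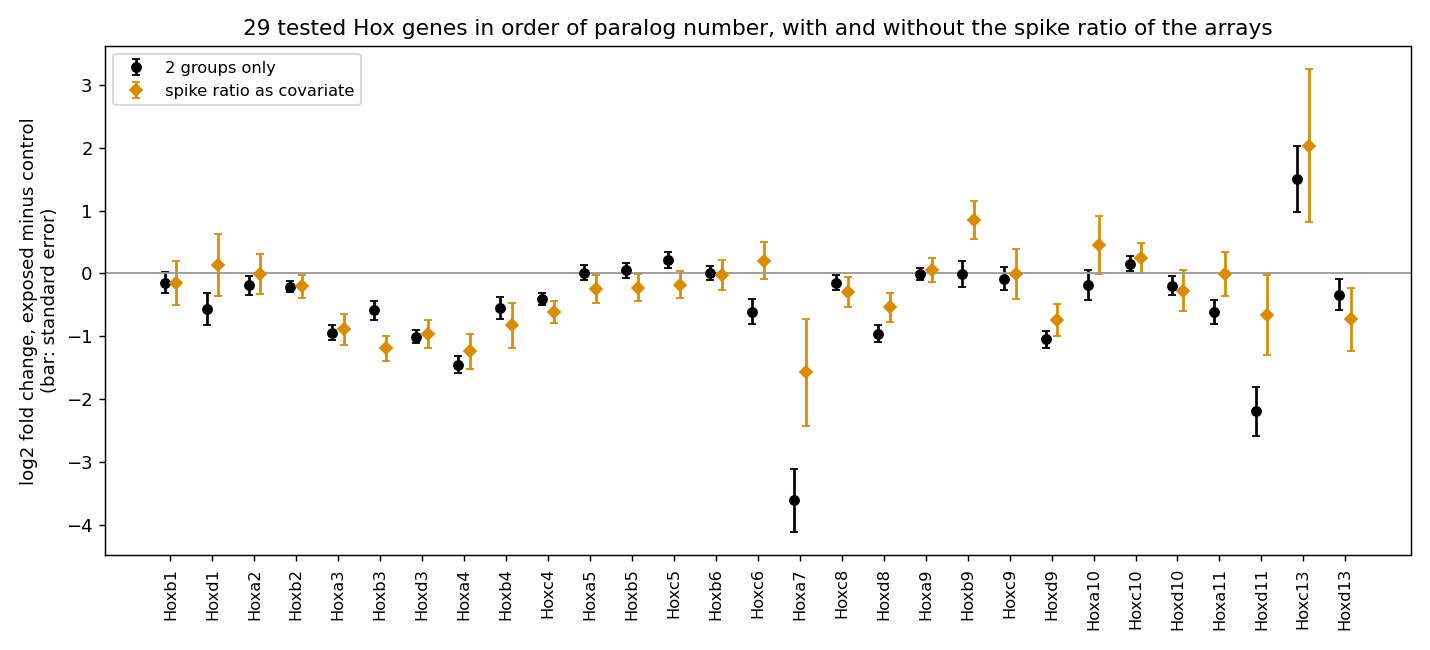
Log2 fold change (diabetes-exposed minus control, bars are SE) of the 29 tested Hox genes in order of paralog number. Circles are the fit of the groups only, and diamonds the fit with the spike ratio as a covariate. Circle and diamond lie close in Hoxa3, Hoxd3 and Hoxa4, and far apart in Hoxa7 (-3.61 and -1.57) and Hoxd11 (-2.19 and -0.66).

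Promoter windows, 250 bases before to 50 after a start, were taken from RefSeq on build GRCm38.p6, where 22 Hox genes, 19 of them among the 33, had 24 windows. Shown are the windows of the paralogs Hoxa3 and Hoxd3, whose fold changes were alike, and of Hoxa7 and Hoxd11, whose fold changes were the lowest, with capitals for matches on either strand to TTTATG, a site of the Cdx factors that switch on trunk Hox genes, or to TGATNNAT, a composite site of Hox proteins with their Pbx partners. These are Hoxa3 (chr6:52213018-52213317, minus strand), Hoxa7 (chr6:52218524-52218823, minus strand), Hoxd3 (chr2:74711743-74712042, plus strand) and both windows of Hoxd11 (chr2:74679308-74679607 and chr2:74682073-74682372, plus strand).
Hoxa3: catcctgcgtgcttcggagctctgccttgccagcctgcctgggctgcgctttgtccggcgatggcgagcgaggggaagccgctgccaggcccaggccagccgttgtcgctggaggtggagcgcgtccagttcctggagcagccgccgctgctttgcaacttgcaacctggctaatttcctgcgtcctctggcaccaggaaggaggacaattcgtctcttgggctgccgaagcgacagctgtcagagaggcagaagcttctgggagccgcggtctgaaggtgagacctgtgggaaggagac
Hoxa7: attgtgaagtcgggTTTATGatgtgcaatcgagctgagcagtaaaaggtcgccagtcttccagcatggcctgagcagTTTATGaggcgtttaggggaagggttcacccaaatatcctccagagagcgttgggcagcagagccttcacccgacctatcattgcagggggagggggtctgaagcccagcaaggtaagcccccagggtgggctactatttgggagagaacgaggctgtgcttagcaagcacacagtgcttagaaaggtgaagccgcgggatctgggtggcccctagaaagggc
Hoxd3: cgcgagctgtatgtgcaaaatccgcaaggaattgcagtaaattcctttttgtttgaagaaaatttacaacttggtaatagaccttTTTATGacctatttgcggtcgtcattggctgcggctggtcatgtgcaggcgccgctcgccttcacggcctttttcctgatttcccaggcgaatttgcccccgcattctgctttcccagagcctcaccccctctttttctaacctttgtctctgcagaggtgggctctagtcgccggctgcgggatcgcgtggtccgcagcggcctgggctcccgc
Hoxd11, first window: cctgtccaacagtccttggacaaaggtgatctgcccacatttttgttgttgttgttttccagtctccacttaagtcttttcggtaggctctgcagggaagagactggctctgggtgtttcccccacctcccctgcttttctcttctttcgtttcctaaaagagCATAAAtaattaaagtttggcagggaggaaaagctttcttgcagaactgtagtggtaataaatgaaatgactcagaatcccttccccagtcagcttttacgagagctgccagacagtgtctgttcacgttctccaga
Hoxd11, second window: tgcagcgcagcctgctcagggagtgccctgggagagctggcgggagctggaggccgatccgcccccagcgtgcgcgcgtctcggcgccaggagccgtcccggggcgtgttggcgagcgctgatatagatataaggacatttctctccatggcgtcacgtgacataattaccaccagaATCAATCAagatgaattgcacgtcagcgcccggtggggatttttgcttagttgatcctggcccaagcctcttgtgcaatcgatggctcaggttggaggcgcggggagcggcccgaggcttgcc
The Cdx letters stood in 3 of the 10 windows of genes called lower, in 5 of all 24 Hox windows and in 11.9% of 32851 windows of the genome. The Pbx-Hox letters stood in 1 of the 10, in 4 of the 24 and in 8.85% of the genome's windows. The windows of Hoxa7 and Hoxd3 and the first of Hoxd11 held a Cdx match, the second of Hoxd11 a Pbx-Hox match, and that of Hoxa3 held no match to either. The median GC content was 57.6% over the Hox windows and 52.7% over all. A match is a description of the letters and not a binding site.

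Genes that work with or upstream of Hox genes were also counted. Of 8 tested partners of the TALE class, homeodomain proteins that bind DNA together with Hox proteins, 3 were lower and 0 higher (median -0.19). These were Pbx2 (-0.77 ± 0.09 SE), Pknox1 (-0.80 ± 0.21) and Meis3 (-0.34 ± 0.12), with limma adjusted p = 0.00077, 0.019 and 0.048. The calls of Pknox1 and Meis3 were lost under each of the 3 scalings (Pknox1 at an adjusted p of 0.063 to 0.11 and Meis3 of 0.21 to 0.86 in limma), and the covariate fit gave -0.65 for Pbx2, -0.42 for Pknox1 and -0.15 for Meis3, none of them called. Of 11 tested regulators that set Hox expression along the axis, 4 were lower and 1 higher (median -0.48). The 1 higher was Aldh1a2 (0.42 ± 0.09 SE, limma adjusted p = 0.0087). Its call held under each of the 3 scalings but not in the covariate fit (0.21, adjusted p = 0.61). Cyp26b1, which breaks down retinoic acid, averaged 126.8 ± 54.5 in diabetes-exposed and 424.4 ± 94.9 in control pools (SD, n = 3 each), and Rarb, a retinoic acid receptor and target, 474.9 ± 108 in diabetes-exposed and 799.9 ± 38.1 in control pools. Both were lower by more than the spread between pools (limma adjusted p = 0.0025 and 0.0062), but the covariate fit gave -0.39 and -0.11. Gbx2, which sets the border of midbrain and hindbrain, was at -0.71 ± 0.15 (limma adjusted p = 0.0064), a call lost under median centring (0.12), under quantile normalization (0.088) and in the covariate fit (0.18). That of Rarb was lost under median centring (0.060). Of 31 tested Polycomb and trithorax genes, which keep Hox genes silent or active, 12 were lower and 4 higher (median -0.15). Men1, Kmt2b and Cbx2 had the smallest p among them. Men1 averaged 707.5 ± 70.9 in diabetes-exposed and 1675 ± 64.2 in control pools, Kmt2b 611.8 ± 136 in diabetes-exposed and 1788 ± 194 in control pools, and Cbx2 824.2 ± 222 in diabetes-exposed and 2410 ± 104 in control pools (SD, n = 3 each), with limma adjusted p = 0.00024, 0.00059 and 0.00072. The covariate fit gave -0.91 for Men1, which was still called (0.043), and -0.90 for Kmt2b (0.14) and -0.88 for Cbx2 (0.17), which were not. The share of all genes called lower was 19.9%, and of all called higher 17.6%. Median centring, which adds 0.30 to each log2 fold change, puts the medians of the TALE and the Polycomb and trithorax lists above 0.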

How the data were processed

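The authors made the deposited table, linear signal intensities of each probe set on each array, with GCOS and MAS5 and scaled it per array. Their versions and a genome build are not given in the sources read, and detection calls were not used here. Log2 was taken with no further scaling. The dimmest 33.3% of probe sets and 64 control probe sets were left out. The comparison of groups used limma 3.58.1 (R 4.3.3, lmFit, eBayes with trend), with Benjamini-Hochberg adjustment over 30024 probe sets. Of 45101 probe sets, 34958 carried 1 symbol, 932 several and 9211 no symbol. Depth is signal over background, and the number of arrays limits the precision. An exact permutation test of 3 against 3 pools cannot go below 0.1.

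Signals of every pool were given for each Hox gene called at an adjusted p under 0.05, for a probe set called in the direction opposite to its gene's read one, and for the brightest dim gene of a cluster. Of the other lists at most 3 genes with the smallest p were named, and for TALE partners these were all that were called. Aldh1a2 was named in addition, as the only regulator called higher. The second probe sets of Hoxa9, Hoxb3, Hoxb4 and Hoxa5 and the other probe sets of Hoxc6 were picked once their values had been seen. So were Hoxc13, the marker Prl8a2 and the regulator Aldh1a2. The members and lists were chosen with earlier results of these data known. Ratios of probe sets within a gene were fitted over all genes, an alternative added after seeing the data. Alternatives were centring on the median, normalization by quantiles or cyclic loess, 32 as a pseudocount, a filter of 50% or none, eBayes with no trend, a replicate block, the spike ratio over 8 pairs of probe sets as a covariate, leaving out each pool, leaving out diabetes-exposed pools 1 and 3 together, the methods' t-test, omitting the _s_at and _x_at probe sets, which can bind related transcripts, and the mean of a gene's probe sets. The fit was tested on simulated data. Plots were made in Python 3.11.15 with matplotlib 3.10.9.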

Additional observations from a re-analysis of the deposited data

Results flagged for a closer look

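Of 8 probe sets in the Hox clusters that do not belong to 1 Hox gene alone, 3 were higher in diabetes-exposed pools, with no overlap between groups, and were used in no comparison of the report. Among all tested probe sets 14.4% were called higher. In 25.9% of all genes every diabetes-exposed pool lay above every control pool. The probe set of Hoxb5os, an antisense transcript of cluster b, had 6508.5, 5185.2 and 5626.5 in diabetes-exposed pools and 3388.3, 2680.6 and 3028.3 in control pools. It was higher by 0.93 ± 0.12 on the log2 scale (SE, n = 3 pools each, limma adjusted p = 0.00094), and by 0.67 once the spike ratio entered the fit (adjusted p = 0.18 in limma). A probe set listed for both Hoxb8 and Hoxb7 had 661.9, 546.2 and 598.3 in diabetes-exposed pools and 341.5, 378.8 and 431.4 in control pools. Its log2 fold change was 0.65 ± 0.14 (SE, limma adjusted p = 0.0067), and 0.33 once the spike ratio entered the fit (adjusted p = 0.62 in limma). The probe set of Hoxb7 alone was too dim to test. A probe set listed for both Hoxd4 and Hoxd3 had 309.7, 338.1 and 264.3 in diabetes-exposed pools and 162.6, 176.3 and 78.2 in control pools. Its log2 fold change was 1.21 ± 0.30 (SE, limma adjusted p = 0.014), and 1.91 once the spike ratio entered the fit (adjusted p = 0.17 in limma). Another probe set listed for the same pair ran the other way, with 527.7, 484.3 and 299.7 in diabetes-exposed pools and 859.1, 748.3 and 519.5 in control pools (log2 fold change -0.71, limma adjusted p = 0.054). The probe set of Hoxd3 alone was called lower (log2 fold change -1.0). Which of its 2 genes a probe set listed for a pair reads was not tested.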

How the results depend on the processing

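Of 519 values of single Hox genes under alternatives, 410 kept their sign and their side of the threshold, 48 were no longer called and 12 became called. A further 49 turned their sign, of which 47 were called neither way, and the other two were Hoxc6 at 0.20 in the covariate fit and Hoxc5 at -0.65 with the mean of all its probe sets. Causes were not tested. Counts are of 12 genes lower and 0 higher, and 18 probe sets lower and 1 higher. Median centring gave 7 genes lower and 2 higher and 4 probe sets higher, quantile normalization 3 genes and 5 probe sets higher, and loess 2 genes and 4 probe sets higher. The median of all genes moved to 0.30, 0.14 and 0.081 under these. A pseudocount of 32 gave 1 gene and 2 probe sets higher, no trend 8 genes lower and 1 gene and 2 probe sets higher, the spike ratio as a covariate 1 gene and 1 probe set lower and 0 probe sets higher. The methods' t-test gave 2 probe sets lower and 0 higher. With diabetes-exposed pools 1 and 3 left out together 11 probe sets were lower and 0 higher. Without probe sets that may bind several transcripts 0 were higher, and with a gene read as the mean of its probe sets 2 genes were higher.

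The Hox median was 0.094 under median centring and -0.051 under quantile normalization. Medians of clusters a, b, c and d were -0.10, 0.16, 0.22 and -0.66 under median centring, -0.18, 0.16, 0.24 and -0.69 under quantile and -0.22, 0.078, 0.15 and -0.77 under loess normalization. Medians of groups 1 to 3 were -0.26, -0.25 and -0.36 under these, of groups 4 to 8 -0.10 and -0.25 under the first pair, and of groups 9 to 13 0.12 under median centring. A pseudocount of 32 put groups 1 to 3 at -0.43. Leaving out the dimmest 50% put cluster a at -0.19 and cluster d at -0.76. With the spike ratio as a covariate clusters a, c and d were at -0.13, -0.0083 and -0.66 and groups 1 to 3 at -0.20. With diabetes-exposed pools 1 and 3 left out together clusters c and d were at -0.035 and -0.74, groups 1 to 3 at -0.26 and groups 4 to 8 at -0.27. Reading a gene as the mean of its probe sets put cluster a at -0.62.

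Without 1 pool at a time, 7 to 12 genes and 13 to 19 probe sets were lower, 0 genes and 1 to 2 probe sets were higher, and the Hox median was -0.41 to -0.19. The medians were -0.61 to -0.32 in cluster a, -0.21 to -0.000062 in b (the highest without control pool 1), -0.17 to 0.079 in c (above 0 without diabetes-exposed pool 3) and -1.01 to -0.90 in d. They were -0.63 to -0.34 in groups 1 to 3, -0.47 to -0.35 in groups 4 to 8 and -0.36 to -0.09 in groups 9 to 13. The lowest count of genes was without control pool 2. Pools of the same number deviated together with correlations of -9.2e-06, 0.076 and 0.12, so that the numbers were not taken as pairs, and the number as a replicate block gave 11 genes and 18 probe sets lower and 2 probe sets higher, and lost the call of Hoxb4 (limma adjusted p = 0.053) and of no other gene. Dim probe sets limit what can be said of Hoxa7, Hoxd11 and Hoxc13.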
